A study of Arabidopsis thaliana with 12 samples.

Results

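The er erl2 double mutant was set against wild type in whole Arabidopsis thaliana seedlings given a mock treatment. The members are the 6 libraries that the sample titles assign to mock-treated er erl2 (3 libraries) or mock-treated wild type (3 libraries), out of 12 libraries in a design that also has auxin-treated (IAA) samples of both genotypes. The mutant carried the alleles er-105 and erl2-1, and both genotypes were of the Col-0 background by their labels. All seedlings were 3 days past germination, were moved from solid medium into liquid medium for 30 min, and then received 0.02% DMSO for 30 min. The labels do not say whether libraries of a group came from separate cultures, so the p-values measure the spread between these libraries, which may be technical. Transcript differences are described by gene function, with genes on chromosomes 1 to 3 kept apart from genes on chromosomes 4 and 5.

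ER (ERECTA) and ERL2 encode leucine-rich repeat receptor kinases of the plasma membrane, and ERL1 is the third member of the family. These receptors bind secreted peptides of the EPF and EPFL families, act with the receptor-like protein TMM in the epidermis, and signal through a cascade headed by the kinase YODA. In leaves and cotyledons the pathway limits the entry of epidermal cells into the stomatal lineage, and in stems and inflorescences it promotes growth.

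Raw counts totalled 28930625 to 35837999 per library over all 12 libraries, and 21376 genes passed the filter on low counts. Levels are given as CPM, which are counts scaled to a common library size after trimmed-mean normalization in edgeR, one value per library. Differences are log2 fold changes of er erl2 over wild type from an edgeR quasi-likelihood fit, with standard errors (SE), and genes were called at a Benjamini-Hochberg adjusted p under 0.05. CPM is not corrected for transcript length, so levels are compared between genotypes and not between genes. Among the 6 libraries the first principal component, with 64.2% of the variance, separated the genotypes. The second, with 11.8%, spread the wild-type libraries, with replicate 1 at one end and replicate 3 at the other.

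The targeted genes were the check on the labels. ER stood at 4.92, 6.17 and 8.57 CPM in er erl2, against 61.3, 56.8 and 63.6 CPM in wild type. ERL2 stood at 3.00, 2.50 and 3.93 CPM in er erl2, against 13.2, 12.1 and 11.8 CPM in wild type. Both genes were thus low in every mutant library, and the log2 fold changes were -3.20 (SE 0.155) for ER and -1.97 (SE 0.164) for ERL2. ERL1 was at 4.05, 4.47 and 4.26 CPM in er erl2, against 2.21, 3.17 and 2.37 CPM in wild type, a log2 fold change of 0.72 (SE 0.209). The ERL1 call (Benjamini-Hochberg adjusted edgeR p 0.0309) was lost in 5 of the 6 fits that left out 1 library, all but the one without wild-type replicate 2, and the adjusted p reached 0.0889 at most. ERL1 also overlaps the exons of a neighbouring gene in the annotation, so its counts are uncertain.

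The genotypes differed in 3362 genes, which is 15.7% of those tested. Of these, 1795 were higher in er erl2 (8.4% of genes tested) and 1567 were lower (7.33%). Chromosomes 1 to 3 held 1617 called genes of 13055 tested (12.4%), with 925 higher (7.09%) and 692 lower (5.3%). On chromosomes 4 and 5, 1745 of 8240 were called (21.2%), with 870 higher (10.6%) and 875 lower (10.6%). The share called was 11.7%, 12.8% and 13% on chromosomes 1, 2 and 3, and 21.0% and 21.3% on chromosomes 4 and 5.

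The gap between the chromosome classes was wider among large differences. In all, 734 genes (3.43%) were called with a difference of at least 2-fold. These made up 1.76% of tested genes on chromosomes 1 to 3 (118 higher, 112 lower) and 6.12% on chromosomes 4 and 5 (221 higher, 283 lower). At least 4-fold differences made up 0.536% and 2.6% of the tested genes of each class. For chromosomes 1 to 3 the median absolute log2 fold change of called genes was 0.44, and on chromosomes 4 and 5 it was 0.56. Called genes without a single count in the 3 er erl2 libraries numbered 0 on chromosomes 1 to 3 and 21 on chromosomes 4 and 5. Called genes without a count in the 3 wild-type libraries numbered 2 on chromosomes 1 to 3 and 23 on chromosomes 4 and 5. Of the 81 tested plastid and mitochondrial genes, edgeR called 0, and 3 had an unadjusted p under 0.05. Of the called genes, 937 overlap the exons of another annotated gene, and their counts are uncertain.

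The IAA-treated libraries, which are other samples than the mock groups, gave a second reading of the genotype difference, with 2989 genes called (14% of those tested). Both readings came from the same fit to all 12 libraries, so they share the filter and the estimate of spread and are not fully independent. Of the genes called under mock, 739 on chromosomes 1 to 3 (45.7%) and 1118 on chromosomes 4 and 5 (64.1%) were called in the same direction under IAA, and 0 in the opposite direction. No gene (0) had a genotype difference that changed with treatment at an adjusted p under 0.05 in edgeR. At an unadjusted p under 0.05 there were 1279 of the 21376 genes tested, and none of these is read as a change. Where a value under IAA is given beside a gene below, it is that gene's genotype difference in the IAA libraries. Counts of called list members below stand beside the 12.4% of all tested genes called on chromosomes 1 to 3 and the 21.2% on chromosomes 4 and 5. The lists were chosen with earlier results of these data known. A list share above these values is therefore a description and not a test.

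**Figure D1:**
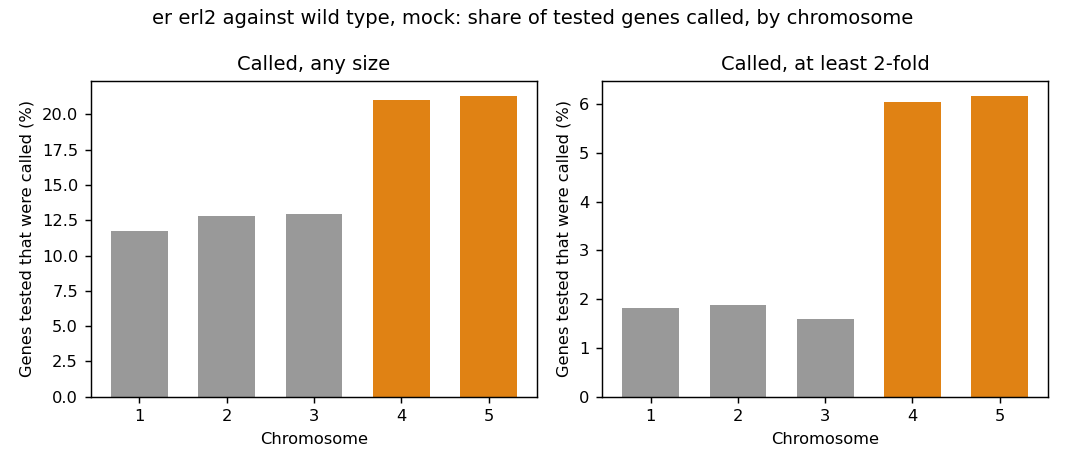
Share of tested genes that were called in er erl2 against wild type under mock, by chromosome (x axis) and in percent (y axis), for calls of any size and for calls of at least 2-fold. Grey bars are chromosomes 1 to 3 and orange bars are chromosomes 4 and 5, where 21.0% and 21.3% of tested genes were called.

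Genes of the stomatal lineage were higher in er erl2. Of 14 tested list members on chromosomes 1 to 3, 7 were called higher and 0 lower, with a median log2 fold change of 0.50 over the 14. On chromosomes 4 and 5, 3 of 4 were called higher and 0 lower, with a median of 1.09. Over all tested genes the median was -0.01. TMM, the receptor-like partner of the ERECTA family, was at 41.1, 33.8 and 39.9 CPM in er erl2, against 10.2, 10.5 and 9.56 CPM in wild type. SPCH (SPEECHLESS), the bHLH factor that starts the lineage, was at 30.2, 21.9 and 26.1 CPM in er erl2, against 12, 9.05 and 11.2 CPM in wild type. Every mutant library lay above every wild-type library for both genes, and the log2 fold changes were 1.92 (SE 0.151) and 1.28 (SE 0.145). The summed level of the 19 listed genes was 273 to 303 CPM in er erl2 and 173 to 187 CPM in wild type. In bulk seedlings fewer cells of a type and less RNA per cell cannot be told apart, for these genes or for any tissue marker below.

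The promoters of the 4 lineage genes with the largest called differences are shown because bHLH factors such as SPCH bind E-boxes, with the letters CANNTG. Each sequence is the 250 bases before the annotated start of the gene in the RefSeq annotation of TAIR10.1, read 5′ to 3′ on the strand of the gene, and capitals mark E-boxes. TMM lies at chr1:30129650-30129899 on the minus strand, EPF2 at chr1:12472618-12472867 on the plus strand, BASL at chr5:24489837-24490086 on the minus strand and SPCH at chr5:21589256-21589505 on the minus strand.
TMM: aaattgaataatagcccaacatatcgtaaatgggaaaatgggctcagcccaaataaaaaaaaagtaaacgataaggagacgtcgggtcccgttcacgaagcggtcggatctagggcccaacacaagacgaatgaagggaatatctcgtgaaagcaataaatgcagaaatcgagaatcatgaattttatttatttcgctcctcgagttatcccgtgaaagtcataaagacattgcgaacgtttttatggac
EPF2: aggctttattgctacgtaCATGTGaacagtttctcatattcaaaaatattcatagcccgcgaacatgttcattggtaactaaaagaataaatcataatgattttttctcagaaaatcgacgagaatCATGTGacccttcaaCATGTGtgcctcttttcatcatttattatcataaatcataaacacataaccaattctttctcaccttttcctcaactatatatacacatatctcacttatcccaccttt
BASL: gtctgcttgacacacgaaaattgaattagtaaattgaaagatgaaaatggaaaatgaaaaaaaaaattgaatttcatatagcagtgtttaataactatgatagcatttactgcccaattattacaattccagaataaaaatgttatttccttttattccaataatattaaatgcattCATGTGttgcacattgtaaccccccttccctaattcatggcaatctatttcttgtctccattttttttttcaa
SPCH: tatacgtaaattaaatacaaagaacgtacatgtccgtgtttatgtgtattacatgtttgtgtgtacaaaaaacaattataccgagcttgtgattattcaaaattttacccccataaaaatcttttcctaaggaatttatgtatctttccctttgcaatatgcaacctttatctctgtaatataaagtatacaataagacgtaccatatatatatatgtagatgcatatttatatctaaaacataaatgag
EPF2 holds 3 E-boxes and BASL holds 1, all with the letters CATGTG, while the windows of TMM and SPCH hold 0. The pattern CANNTG reads the same on both strands, while the letters CATGTG do not. At least 1 E-box stood in 6 of the 10 promoters of called lineage genes (60%) and in 11532 of 20486 promoters of tested protein-coding genes (56.3%). The G-box CACGTG, which is one of the E-boxes, stood in 0 of the 10 and in 7.28% of the 20486.

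The partners and later genes of the lineage differed less than TMM. SCRM2, a bHLH partner of SPCH, was at 28.8, 27.9 and 28 CPM in er erl2, against 20.01, 16.1 and 17.1 CPM in wild type. ICE1, the other partner, was at 76.1, 65.1 and 68.5 CPM in er erl2, against 49.6, 42.9 and 50.9 CPM in wild type. The groups stayed apart for both partners, at log2 fold changes of 0.67 (SE 0.115) and 0.55 (SE 0.0959). POLAR, which marks the cell pole before asymmetric division, was higher by 0.90 (SE 0.148), and BASL, which sets that polarity, by 1.40 (SE 0.201). POLAR overlaps another gene in the annotation, so its counts are uncertain. FMA (FAMA), a bHLH factor of the last step to guard cells, was higher by 0.63 (SE 0.141), and SDD1, a subtilisin protease that limits stomatal density, by 0.76 (SE 0.142). MUTE, the bHLH factor between SPCH and FMA, had an estimate of 0.44 and was not called.

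Transcripts of mature guard cells were also higher, in 4 of 4 tested list members on chromosomes 1 to 3 (median log2 fold change 0.66) and in 2 of 5 on chromosomes 4 and 5 (median 0.37). SLAC1, the anion channel that drives stomatal closure, was at 3.06, 2.87 and 2.52 CPM in er erl2, against 1.43, 1.22 and 1.35 CPM in wild type. CHX20, a cation/proton exchanger of guard cells, was at 33.9, 33.8 and 30.7 CPM in er erl2, against 21.5, 20.8 and 21.7 CPM in wild type. No wild-type library reached the lowest mutant library for either gene. The log2 fold changes were 1.08 (SE 0.215) for SLAC1, 0.70 (SE 0.128) for the kinase HT1, 0.62 (SE 0.137) for CHX20 and 0.55 (SE 0.116) for the transcription factor MYB60.

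On chromosomes 4 and 5 the malate channel ALMT12 was at 5.97, 5.87 and 6.47 CPM in er erl2, against 2.27, 2.97 and 2.7 CPM in wild type, a log2 fold change of 1.2 (SE 0.192). The inward potassium channel KAT1 was higher by 0.54 (SE 0.122). The members not called were KAT2 (0.11), the outward potassium channel GORK (0.22) and the transcription factor SCAP1 (0.37). All 6 calls held in each fit without 1 library. Under IAA, 2 of 4 members on chromosomes 1 to 3 and 1 of 5 on chromosomes 4 and 5 were called higher. SLAC1 (0.47), HT1 (0.38) and KAT1 (0.22) were not called there. SLAC1 overlaps other genes in the annotation, so its counts are uncertain.

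Summed over the 9 guard-cell genes, the level was 111 to 123 CPM in er erl2 and 77.7 to 86.1 CPM in wild type. A sum over 39 nuclear photosynthesis genes, markers of green tissue given further on, also stood higher in er erl2, and its part in the stomatal results was not tested.

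**Figure D2:**
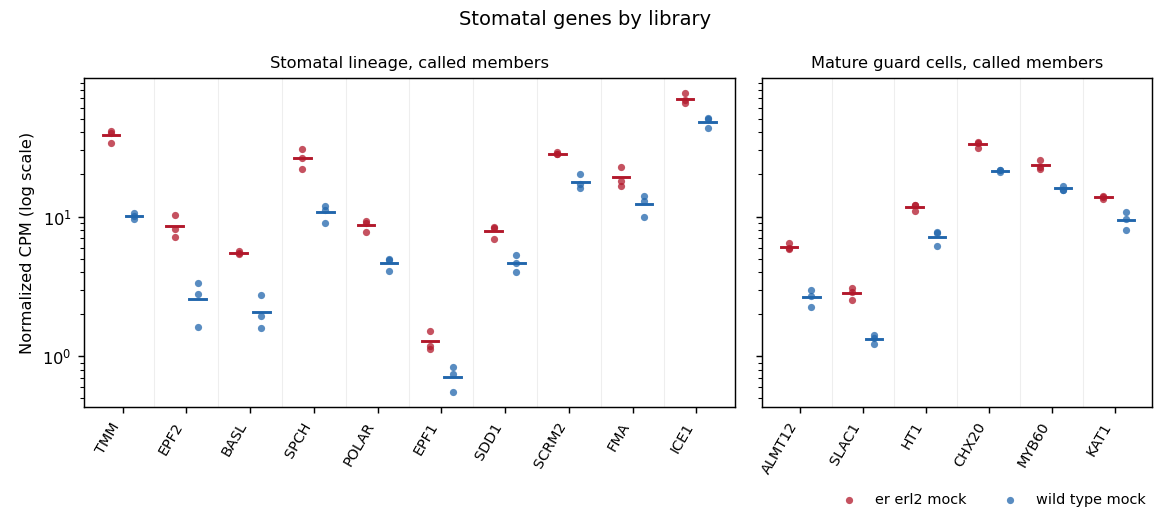
Level of each called stomatal-lineage and guard-cell gene in each library, in normalized CPM on a log axis, with er erl2 mock in red to the left of wild type mock in blue. Points are libraries and bars are group means over 3 libraries. For every gene drawn, the mutant libraries sit above the wild-type libraries.

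Of the secreted EPF and EPFL peptides, 2 of 5 tested were called higher on chromosomes 1 to 3, and 1 of 4 was called higher and 1 lower on chromosomes 4 and 5. EPF2, a peptide made by early lineage cells that limits entry into the lineage, was at 10.3, 7.17 and 8.10 CPM in er erl2, against 3.34, 1.62 and 2.80 CPM in wild type, a log2 fold change of 1.72 (SE 0.261). EPFL9 (stomagen), the peptide that promotes stomata, was at 3.83, 4.24 and 4.81 CPM in er erl2, against 2.59, 1.96 and 2.64 CPM in wild type, a log2 fold change of 0.84 (SE 0.203). The mutant libraries were the higher ones for both peptides, and under IAA the difference was 1.93 for EPF2 and 0.24, not called, for EPFL9. Without wild-type replicate 2 or without er erl2 replicate 3 EPFL9 was not called. EPF1 (0.84, SE 0.262) and EPFL4 (-1.54, SE 0.492) passed the threshold, but neither was called in any of the 6 fits without 1 library. The peptide counts thus became 1 on chromosomes 1 to 3, except without wild-type replicate 2, where another member kept it at 2. On chromosomes 4 and 5 they became 1, or 0 without wild-type replicate 2 or er erl2 replicate 3.

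Of 15 tested genes of ERECTA signalling on chromosomes 1 to 3, 3 were higher and 1 lower (median -0.02), and of 3 on chromosomes 4 and 5 edgeR called 0, with 0 at an unadjusted p under 0.05 and 0 in DESeq2 and limma-voom. The 3 higher ones were TMM, SDD1 and ATSBT5.2, a subtilisin protease (0.49, SE 0.134). The kinases downstream of the receptors had small estimates. YDA was at -0.04, MKK4 at -0.27, MKK5 at -0.14 and MPK3 at -0.31, none of them called. The co-receptors SERK1 (-0.02), SERK2 (0.04) and BAK1 (-0.02) were not called either. MPK6, the last kinase of the cascade, was lower by 0.17 (SE 0.0545), a call that each fit without 1 library lost. Without wild-type replicate 2 or er erl2 replicate 3 the 4 calls became 2. MKK4, MKK5, MPK3, MPK6 and the 3 co-receptors overlap other genes in the annotation.

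Several regulators of leaf hairs were lower in er erl2. GL1, the MYB factor that starts trichomes (leaf hairs), was at 0.216, 0.367 and 0.332 CPM in er erl2, against 1.49, 1.89 and 1.76 CPM in wild type. GL2, a homeodomain factor of trichomes and of root epidermis, was at 3.31, 3.24 and 3.93 CPM in er erl2, against 9.34, 11.3 and 10.3 CPM in wild type. MYB23, a close relative of GL1 on chromosome 5, was at 0.773, 0.467 and 1.11 CPM in er erl2, against 3.41, 3.85 and 2.84 CPM in wild type. No mutant library reached the lowest wild-type library for these 3 genes. The log2 fold changes were -2.48 (SE 0.304) for GL1, -1.56 (SE 0.157) for GL2 and -2.08 (SE 0.272) for MYB23, and under IAA they were -2.17, -1.79 and -2.55. GL2 overlaps other genes in the annotation, so its counts are uncertain.

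Of 9 tested genes of epidermal identity and hairs on chromosomes 1 to 3, 3 were lower and 0 higher (median -0.37), and of 7 on chromosomes 4 and 5, 1 was lower and 1 higher (median 0.09). TTG2, a WRKY factor of trichomes that was not on the list and was chosen after its value was seen, was lower by 1.22 (SE 0.205). CPL3, a single-repeat MYB protein of the class that inhibits trichome fate, was at 5.07, 3.90 and 5.31 CPM in er erl2, against 1.56, 0.878 and 1.05 CPM in wild type. It was thus higher in each mutant library, by 2.03 (SE 0.295). The partners of GL1 were not called, with estimates of 0.43 for GL3, 0.10 for EGL3 and 0.11 for TTG1. The protodermal gene PDF1 was lower by 0.37 (SE 0.0839), while ATML1, a master factor of epidermal identity, was at -0.02. PDF2, the relative of ATML1, was higher by 0.23 (SE 0.0724), and each fit without 1 library lost that call, which leaves 1 of the 7 genes on chromosomes 4 and 5.

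Cutin and wax genes were called lower where they were called, in 4 of 12 on chromosomes 1 to 3 (median -0.16) and 3 of 9 on chromosomes 4 and 5 (median -0.28). DCR, an acyltransferase of cutin synthesis, was at 16.3, 12.7 and 15.2 CPM in er erl2, against 44.4, 48.0 and 43.9 CPM in wild type. CER1, of wax alkane synthesis, was at 8.38, 13.8 and 16.8 CPM in er erl2, against 31.9, 36.9 and 36.5 CPM in wild type. The genotypes did not overlap for DCR or CER1, and the log2 fold changes were -1.62 (SE 0.104) and -1.43 (SE 0.197). The cutin genes CYP77A6 (-0.74, SE 0.147) and GPAT6 (-0.40, SE 0.0962) were lower too.

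WSD1, a wax ester synthase, had 0 counts in the 3 er erl2 libraries and 0.487, 0.439 and 0.743 CPM in wild type. MYB106, a factor of cuticle and trichome shape, had at most 0.083 CPM in er erl2, against 0.259, 0.574 and 0.372 CPM in wild type. CYP86A7, named from the cytochromes P450 and close to the cutin hydroxylases, had at most 0.0334 CPM in er erl2, against 1.2, 1.52 and 1.05 CPM in wild type. These 3 genes were at or near the depth limit in the mutant. Calls of cutin and wax genes on chromosomes 1 to 3 numbered 2 without wild-type replicate 2. Those on chromosomes 4 and 5 numbered 5 without wild-type replicate 1 and 2 in every other fit without 1 library. All tested genes there were called at 21.2%. ATT1 (-0.49, SE 0.150), whose groups overlap, was not called in 10 of 14 alternative fits.

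Among root hair genes, 4 of 8 were lower on chromosomes 1 to 3 (median -0.55), 3 of 5 were lower on chromosomes 4 and 5 (median -0.57) and 0 were higher. PRP1, a proline-rich wall protein of root hairs, was at 9.93, 9.47 and 11.4 CPM in er erl2, against 16.5, 25.3 and 21.6 CPM in wild type. EXPA18, an expansin of root hairs, was at 12.6, 11.7 and 12.4 CPM in er erl2, against 17, 18.6 and 17.61 CPM in wild type. ADF8, an actin depolymerizing factor, was at 6.86, 7.14 and 8.49 CPM in er erl2, against 10.7, 11.8 and 11 CPM in wild type. The mutant libraries were lower throughout, at log2 fold changes of -1.04 (SE 0.174), -0.54 (SE 0.103) and -0.57 (SE 0.133).

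The summed level of the 13 root hair genes was 103 to 123 CPM in er erl2 and 142 to 181 CPM in wild type. RHD6, which starts root hairs, was at -0.22 and RSL4, which drives their growth, at -0.63, neither called. The list counts were small under some leave-outs. On chromosomes 1 to 3 they were 2 without wild-type replicate 3, er erl2 replicate 1 or er erl2 replicate 2, and on chromosomes 4 and 5 they were 1 without wild-type replicate 2 or 3 or without er erl2 replicate 1 or 2. EXPA18 overlaps another gene in the annotation.

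**Figure D3:**
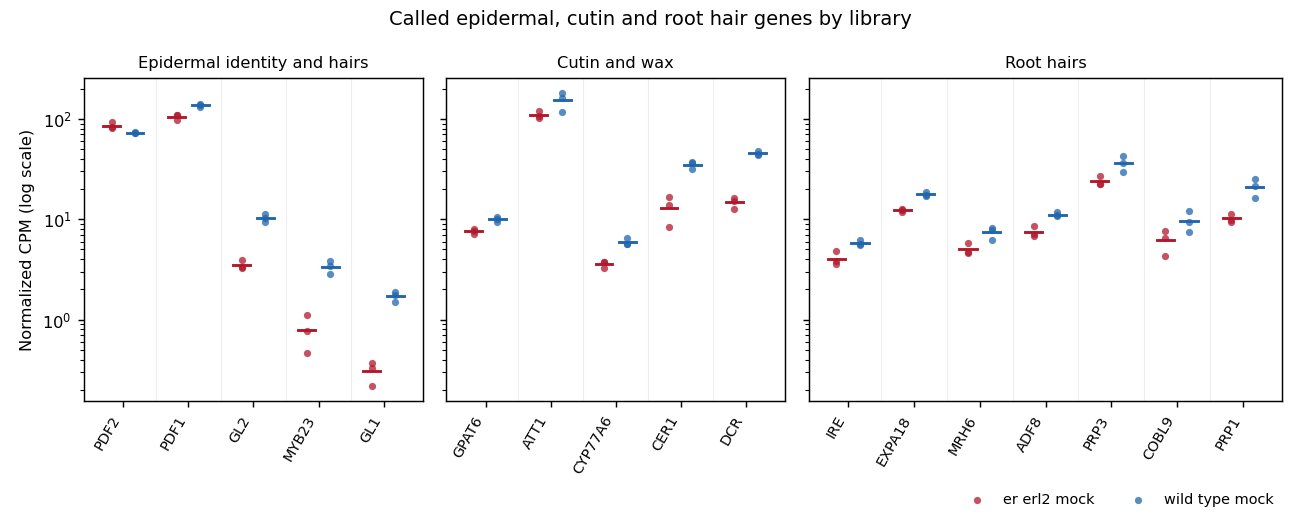
Level of each called gene of epidermal identity and hairs, of cutin and wax, and of root hairs in each library, in normalized CPM on a log axis, with er erl2 mock in red to the left of wild type mock in blue. Bars are group means over 3 libraries, and WSD1 and MYB106 are not drawn because er erl2 libraries held 0 counts. GL1, MYB23, GL2, CER1 and DCR show the widest gaps, with the mutant lower.

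Genes of the iron deficiency response were higher in er erl2, in 9 of 14 on chromosomes 1 to 3 (median log2 fold change 0.65) and in 3 of 7 on chromosomes 4 and 5 (median 0.43). BHLH100, one of the bHLH factors that iron shortage induces, was at 38.1, 42.6 and 43.7 CPM in er erl2, against 11.7, 12.4 and 14.5 CPM in wild type. BHLH39, of the same subgroup, was at 40.0, 46.5 and 45.8 CPM in er erl2, against 24.7, 21.4 and 23.3 CPM in wild type. FER1, which encodes the iron store ferritin and is high in iron-replete tissue, was at 52.7, 39.5 and 42.0 CPM in er erl2, against 113, 125 and 108 CPM in wild type. The genotypes did not overlap for these 3 genes, with the bHLH genes high and FER1 low in the mutant, and the log2 fold changes were 1.69 (SE 0.361), 0.93 (SE 0.193) and -1.36 (SE 0.197).

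The transport genes moved less. IRT1, the root iron importer, was at 327, 330 and 350 CPM in er erl2, against 240, 264 and 241 CPM in wild type, a log2 fold change of 0.43 (SE 0.105). OPT3, which moves iron in the phloem, was higher by 0.62 (SE 0.131), and FRO3, a mitochondrial ferric reductase, by 0.36 (SE 0.0753). The nicotianamine synthases NAS4 and NAS1 were higher by 0.57 (SE 0.144) and 0.70 (SE 0.178). NAS1 lost its call in 7 of 14 alternative fits. MYB72, a root factor induced by iron shortage, was at 0.773, 1.2 and 1.02 CPM in er erl2, against 0.0649, 0.270 and 0.203 CPM in wild type, a log2 fold change of 2.46 (SE 0.584). MYB72 and FRO3 overlap other genes in the annotation, and MYB72 was below the depth limit in wild-type replicate 1.

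PYE and BTS, a bHLH factor and a ubiquitin ligase that hold the iron response in check, were higher by 0.60 (SE 0.155) and 0.49 (SE 0.144). BHLH38 (1.13, SE 0.313) and AT1G47400 (1.14, SE 0.326) completed the 9, but neither was called in any of the 6 fits without 1 library, and BHLH38 overlaps another gene in the annotation. FRU (also called FIT), which drives iron uptake, was at 0.00 and the root ferric reductase FRO2 at 0.24, neither called. The count of 9 on chromosomes 1 to 3 was 5 without wild-type replicate 1, 3 without wild-type replicate 2, 4 without er erl2 replicate 2 and 5 without er erl2 replicate 3. On chromosomes 4 and 5, 3 higher and 1 lower became 1 and 1 without er erl2 replicate 3. Under IAA the medians were 0.33 and 0.15, with 2 of 14 and 1 of 7 called higher.

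Chlorophyll synthesis genes were higher in 4 of 6 on chromosomes 1 to 3 (median 0.34) and 2 of 5 on chromosomes 4 and 5 (median 0.15). The 3 protochlorophyllide oxidoreductases, which carry out the light-dependent step, led the list. PORA was at 5.29, 5 and 3.68 CPM in er erl2, against 1.1, 1.05 and 0.980 CPM in wild type. PORB was at 323, 366 and 416 CPM in er erl2, against 157, 101 and 120 CPM in wild type. PORC was at 110, 105 and 119 CPM in er erl2, against 79.0, 73.3 and 84.9 CPM in wild type. Each mutant library was above each wild-type library, at log2 fold changes of 2.15 (SE 0.207), 1.55 (SE 0.167) and 0.50 (SE 0.0665), and 2.15, 1.08 and 0.45 under IAA.

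CRD1, a cyclase subunit of the same pathway, was higher by 0.40 (SE 0.0655) and CHLD, a magnesium chelatase subunit, by 0.28 (SE 0.0618). HEMA1 (0.19), GUN4 (-0.08) and GUN5 (0.14) were not called. PORB, PORC, CRD1 and CHLD each overlap a neighbour in the annotation. Nuclear photosynthesis genes differed little, with 7 of 26 higher and 0 lower on chromosomes 1 to 3 (median 0.14) and 2 higher and 1 lower of 12 on chromosomes 4 and 5 (median 0.06). The antenna gene LHB1B1 was higher by 0.37 (SE 0.0794) and the small Rubisco subunit gene RBCS1B by 0.53 (SE 0.102). Without wild-type replicate 2, er erl2 replicate 2 or er erl2 replicate 3 the 7 calls became 4, 3 and 4, and on chromosomes 4 and 5 the 3 calls became 1 without either replicate 2. Summed over 39 genes, photosynthesis transcripts held 129945 to 137998 CPM in er erl2 and 119638 to 128202 CPM in wild type. These gene families hold near-identical copies, and their counts are uncertain.

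**Figure D4:**
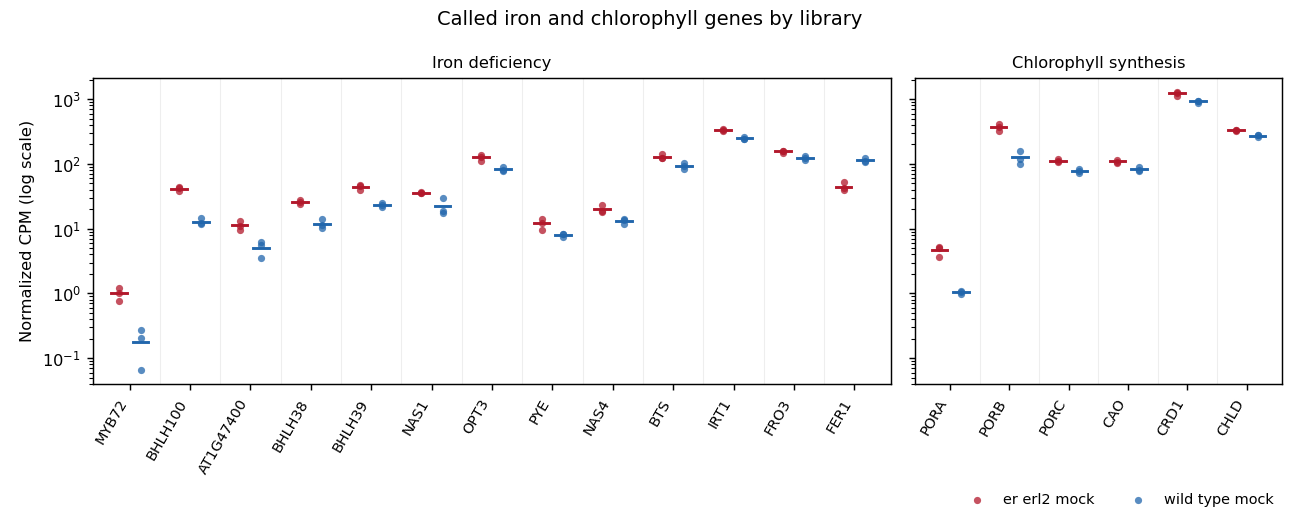
Level of each called iron deficiency and chlorophyll synthesis gene in each library, in normalized CPM on a log axis, with er erl2 mock in red to the left of wild type mock in blue, and bars at group means over 3 libraries. FER1 is the iron gene that is lower in er erl2, and PORA and PORB have the widest gaps in the chlorophyll panel.

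Small auxin-up RNA (SAUR) genes, which auxin and light control and which promote cell expansion, were called in both directions. On chromosomes 1 to 3, 11 of 38 were higher and 2 lower (median 0.27), and on chromosomes 4 and 5, 11 of 25 were higher and 2 lower (median 0.32). SAUR19 was at 4.61, 5.24 and 4.81 CPM in er erl2, against 1.72, 1.15 and 1.35 CPM in wild type. AT1G56150 was at 4.24, 5.94 and 5.78 CPM in er erl2, against 1.56, 1.38 and 1.32 CPM in wild type. The mutant libraries were the higher ones for both, by 1.79 (SE 0.154) and 1.90 (SE 0.179). SAUR20, a neighbour of SAUR19, went the other way, at 1.64, 2.40 and 1.55 CPM in er erl2, against 3.41, 3.11 and 3.99 CPM in wild type (log2 fold change -0.92, SE 0.176). Under IAA the list medians were -0.04 and -0.09, with 1 and 2 members called higher and 4 and 3 lower. SAUR genes lie in arrays of near-identical copies, and the counts of single members are uncertain.

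Of the Aux/IAA, GH3 and LBD genes, 1 was higher and 3 lower of 24 on chromosomes 1 to 3 (median -0.24), and 0 higher and 2 lower of 12 on chromosomes 4 and 5 (median -0.12). The share called was 16.7% in each class, beside 12.4% and 21.2% of all tested genes there, so the counts stood near the background. The member called higher was IAA5 (0.64, SE 0.146), an auxin-induced repressor gene that overlaps another gene in the annotation. GH3.2, which conjugates auxin to amino acids, was at 8.87, 7.64 and 7.91 CPM in er erl2, against 23.6, 18.24 and 65.5 CPM in wild type. GH3.3 was at 34.6, 21.9 and 21.7 CPM in er erl2, against 65.3, 50 and 214 CPM in wild type. For both, wild-type replicate 3 stood far above the other wild-type libraries, and the mutant libraries were close together. The log2 fold changes were -2.13 (SE 0.440) and -2.07 (SE 0.507) under mock, against 0.01 and -0.15 under IAA, where neither was called. GH3.2 lost its call in 1 and GH3.3 in 5 of 14 alternative fits. The 2 calls on chromosomes 4 and 5 became 4 without wild-type replicate 2 and 1 without wild-type replicate 3, er erl2 replicate 1 or er erl2 replicate 2.

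Among genes of auxin synthesis and transport, 4 of 16 were lower on chromosomes 1 to 3 and 2 of 10 were higher and 1 lower on chromosomes 4 and 5, with medians of -0.08 and -0.15. The importer LAX1 was at 39.4, 35.7 and 39.6 CPM in er erl2, against 24.5, 19.0 and 19.1 CPM in wild type, a log2 fold change of 0.87 (SE 0.0886). Its relatives LAX3 and LAX2 were lower by 0.35 (SE 0.0802) and 0.33 (SE 0.0854). LAX1 was higher and LAX3 lower under IAA too (0.84 and -0.30), while LAX2 was at 0.17, not called, there. The LAX2 call was also lost without wild-type replicate 3, er erl2 replicate 2 or er erl2 replicate 3. The 4 calls on chromosomes 1 to 3 became 2 without wild-type replicate 2 and 1 without er erl2 replicate 2 or 3.

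ACC synthases, which make the ethylene precursor, gave the ethylene calls. On chromosome 4, ACS11 was at 2.23, 2.50 and 2.46 CPM in er erl2, against 6.62, 12.6 and 20.17 CPM in wild type. ACS8 was at 8.13, 5.90 and 5.17 CPM in er erl2, against 13.1, 16.5 and 18.3 CPM in wild type. ACS7 went the other way, at 9.18, 6.24 and 7.19 CPM in er erl2, against 4.77, 5.64 and 3.92 CPM in wild type. For ACS11 the wild-type libraries were farther from each other than the lowest of them was from the mutant. The log2 fold changes were -2.45 (SE 0.416), -1.32 (SE 0.235) and 0.66 (SE 0.165). With ACS6 (-1.03, SE 0.263), 3 of 6 were lower and 1 higher on chromosomes 4 and 5 (median -0.68). Without wild-type replicate 3 or er erl2 replicate 1 the 4 calls became 2. Of 14 ethylene genes on chromosomes 1 to 3 edgeR called 0, with 5 at an unadjusted p under 0.05, DESeq2 called 3 and limma-voom 0. The 0 became 1 without wild-type replicate 1 and 2 without wild-type replicate 3.

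Cytokinin genes were called in both directions. ARR3, a type-A response regulator, was at 0.526, 1.1 and 1.11 CPM in er erl2, against 2.82, 3.68 and 3.68 CPM in wild type. ARR16, of the same class, was at 5.53, 5.04 and 5.45 CPM in er erl2, against 3.73, 2.03 and 2.64 CPM in wild type. CKX7, a cytokinin oxidase, was at 10.5, 14.6 and 19.2 CPM in er erl2, against 7.17, 6.15 and 6.29 CPM in wild type. ARR3 was thus lower and the other two higher in every mutant library, at log2 fold changes of -1.89 (SE 0.391), 0.93 (SE 0.216) and 1.18 (SE 0.235). In all, 1 was higher and 2 lower of 17 on chromosomes 1 to 3, and 2 were higher of 6 on chromosomes 4 and 5. The 2 became 1 without any 1 of the wild-type libraries or without er erl2 replicate 2.

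GA20OX3, a gibberellin 20-oxidase on chromosome 5, was at 0.649, 0.634 and 1.05 CPM in er erl2, against 0.0973, 0.135 and 0.101 CPM in wild type, a log2 fold change of 2.78 (SE 0.469). Its wild-type level was at or near the depth limit, so the size of this difference is uncertain. GA3, the kaurene oxidase of the same pathway, was lower by 0.35 (SE 0.0589). Of 13 gibberellin genes on chromosomes 1 to 3 edgeR called 0, with 3 at an unadjusted p under 0.05, DESeq2 called 0 and limma-voom 1. Without wild-type replicate 1 the 0 became 1. Of 13 brassinosteroid genes on chromosomes 1 to 3, 2 were lower (15.4%, near the 12.4% called among all tested genes there). One was BZR1, a transcription factor of that pathway that overlaps other genes in the annotation (-0.48, SE 0.0835). The other was the synthesis enzyme BR6OX2 (-0.77, SE 0.224), which no fit without 1 library called. The 2 calls became 1 in those fits, except without wild-type replicate 2, where another gene was called.

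Cell wall families held calls in both directions. Of xyloglucan endotransglucosylases, which cut and rejoin xyloglucan, 1 of 11 was lower on chromosomes 1 to 3 (median -0.08) and 5 of 15 on chromosomes 4 and 5 (median -0.40), with 0 higher. XTH13 was at 3.46, 3.74 and 4.98 CPM in er erl2, against 6.29, 12 and 9.7 CPM in wild type. TCH4, a touch-induced member, was at 29.9, 35.1 and 40.5 CPM in er erl2, against 77.7, 148 and 231 CPM in wild type. Both were lower in each mutant library, and the spread among wild-type libraries was wide for TCH4. The log2 fold changes were -1.19 (SE 0.241) and -2.11 (SE 0.596), and under IAA they were -0.36 and 0.01, neither called. TCH4 lost its call in 8 of 14 alternative fits. The 5 calls became 8 without wild-type replicate 1, 1 without wild-type replicate 2, 2 without wild-type replicate 3, 1 without er erl2 replicate 1 or 2 and 3 without er erl2 replicate 3. On chromosomes 1 to 3 the 1 call became 2 without er erl2 replicate 3. The family's shares called, 9.09% on chromosomes 1 to 3 and 33.3% on chromosomes 4 and 5, stood beside 12.4% and 21.2% of all tested genes there.

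Genes whose product names read extensin or arabinogalactan protein, structural glycoproteins of the wall, were higher in 5 and lower in 7 of 48 on chromosomes 1 to 3 (median -0.13), and higher in 2 and lower in 10 of 36 on chromosomes 4 and 5 (median -0.34). EXT6 was at 11.9, 10.8 and 15.4 CPM in er erl2, against 21.6, 30.6 and 26.9 CPM in wild type. EXT13 was at 14.5, 13.2 and 17.56 CPM in er erl2, against 21.9, 32.3 and 28.5 CPM in wild type. AT2G27385, named for a pollen Ole e 1 allergen and extensin family, was at 101, 114 and 128 CPM in er erl2, against 36.0, 24.8 and 26.8 CPM in wild type. The extensins were lower and AT2G27385 was higher in every mutant library, at log2 fold changes of -1.05 (SE 0.144), -0.87 (SE 0.140) and 1.97 (SE 0.133). The 12 calls on chromosomes 1 to 3 became 5 without wild-type replicate 2 and 7 without er erl2 replicate 2, and 18 without wild-type replicate 1.

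EXPA12, an expansin, had at most 0.10 CPM in er erl2, against 0.649, 1.22 and 3.65 CPM in wild type. Of 16 expansin genes on chromosomes 1 to 3, 1 was higher and 3 lower, and of 7 on chromosomes 4 and 5, 2 were higher, or 1 without er erl2 replicate 1 or 3. CESA3, a cellulose synthase of the primary wall, was at 941, 900 and 903 CPM in er erl2, against 1049, 1182 and 1137 CPM in wild type, a log2 fold change of -0.30 (SE 0.0571). CESA6 (-0.25, SE 0.0707) and CESA1 (-0.24, SE 0.0687) made up the 3 of 5 called lower on chromosomes 4 and 5. The 3 became 1 without replicate 2 or 3 of either genotype. CESA3 and CESA1 overlap neighbours in the annotation.

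NBS-LRR receptors, the intracellular sensors of pathogen effectors, were called in 28 of 71 on chromosomes 4 and 5, with 8 higher and 20 lower, and in 9 of 61 on chromosomes 1 to 3, with 8 higher and 1 lower. The shares called were 39.4% on chromosomes 4 and 5 and 14.8% on chromosomes 1 to 3, beside 21.2% and 12.4% of all tested genes there. Without wild-type replicate 2 the 9 became 5. AT4G19510 was at 1.58, 1.43 and 1.27 CPM in er erl2, against 48.2, 53.3 and 58.8 CPM in wild type. AT4G16857 was at 26.8, 37.8 and 29.1 CPM in er erl2, against 2.72, 2.2 and 1.55 CPM in wild type. AT5G05400 had 0 counts in the 3 er erl2 libraries and stood at 4.90, 5.07 and 7.16 CPM in wild type. All 3 lie on chromosomes 4 and 5, and the groups were far apart. The log2 fold changes were -5.23 (SE 0.109) for AT4G19510 and 3.85 (SE 0.242) for AT4G16857, and AT5G05400 was at least 62.1-fold lower against the limit of 3 counts per library. CSA1, also with 0 counts in er erl2, was at 17.61, 18.8 and 16.6 CPM in wild type, at least 192-fold lower. Among the calls on chromosomes 1 to 3 was AT3G04210, higher by 1.22 (SE 0.295). The family holds near-identical neighbours, and AT4G16857 overlaps one, so single counts are uncertain.

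Defence regulators of the salicylic acid and pipecolic acid pathways were lower in 3 of 13 tested genes on chromosomes 1 to 3 (median -0.44). ALD1, of pipecolic acid synthesis, was at 0.587, 0.867 and 0.498 CPM in er erl2, against 4.15, 2.60 and 8.31 CPM in wild type. PR5, a pathogenesis-related protein, was at 0.340, 0.700 and 0.387 CPM in er erl2, against 1.49, 1.35 and 1.39 CPM in wild type. FMO1, which acts after ALD1, was at 0.247, 0.233 and 0.194 CPM in er erl2, against 1.23, 1.01 and 0.743 CPM in wild type. All 3 were lower in each mutant library, at log2 fold changes of -2.96 (SE 0.453), -1.58 (SE 0.298) and -2.14 (SE 0.508). The regulators EDS1 (-0.08), PAD4 (-0.08) and NPR1 (0.13) were not called. Of 3 tested on chromosomes 4 and 5, edgeR, DESeq2 and limma-voom each called 0, with 0 at an unadjusted p under 0.05. Under IAA the median on chromosomes 1 to 3 was 0.04, with 1 called lower and 0 higher, and 1 was called higher on chromosomes 4 and 5.

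Glucosinolates, the sulfur defence compounds of this plant family, gave calls in both directions. ESM1, which steers glucosinolate breakdown towards isothiocyanates, was at 111, 89.7 and 101 CPM in er erl2, against 24.1, 20.7 and 20.3 CPM in wild type. TGG1, the myrosinase of guard cells and phloem idioblasts, was at 1927, 2105 and 1842 CPM in er erl2, against 1370, 1192 and 1268 CPM in wild type. MYB76, a regulator of aliphatic glucosinolates, was at 2.54, 2.67 and 2.38 CPM in er erl2, against 0.778, 0.777 and 1.15 CPM in wild type. The mutant libraries stood above the wild-type ones for all 3, at log2 fold changes of 2.21 (SE 0.106), 0.62 (SE 0.0997) and 1.48 (SE 0.239). The summed guard-cell markers given above were also higher, and their part in the TGG1 difference was not tested. MBP1, a myrosinase-binding protein, was higher by 2.51 (SE 0.310). By contrast MAM1, a chain-elongation enzyme, was lower by 0.49 (SE 0.107).

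Of aliphatic glucosinolate genes, 3 of 13 were higher on chromosomes 1 to 3 (median 0.12) and 3 were higher and 1 lower of 8 on chromosomes 4 and 5 (median 0.30). The 3 calls on chromosomes 1 to 3 became 1 in each fit without 1 library except that without wild-type replicate 3, and the 4 on chromosomes 4 and 5 became 2 without wild-type replicate 1 or 2.

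Flavonoid genes were lower on chromosomes 4 and 5, in 4 of 11 (median -0.58). Of 5 on chromosomes 1 to 3 (median -0.05) edgeR, DESeq2 and limma-voom each called 0, with 0 at an unadjusted p under 0.05. TT8, the bHLH regulator of anthocyanins and seed-coat tannins, was at 0.278, 0.434 and 0.277 CPM in er erl2, against 3.73, 4.53 and 5.34 CPM in wild type. LDOX, an enzyme of the late pathway, was at 4.45, 2.80 and 3.12 CPM in er erl2, against 7.30, 8.48 and 8.85 CPM in wild type. Both genes were lower in all mutant libraries, by log2 fold changes of -3.78 (SE 0.269) and -1.24 (SE 0.154). TT4, the first enzyme of the pathway, was at -0.02 and TT5, the next, at -0.05, neither called.

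The flowering repressors of the FLC clade went both ways on chromosome 5. FLC was at 0.371, 0.567 and 0.387 CPM in er erl2, against 2.76, 2.50 and 2.57 CPM in wild type. MAF4 was at 8.16, 9.01 and 8.43 CPM in er erl2, against 2.3, 2.50 and 1.89 CPM in wild type. MAF5, whose symbol comes from the reference table, was at 7.36, 8.51 and 7.77 CPM in er erl2, against 0.746, 0.777 and 0.237 CPM in wild type. FLC was lower and both MAF genes higher in every mutant library, at log2 fold changes of -2.56 (SE 0.296), 1.93 (SE 0.174) and 3.73 (SE 0.272). FLC overlaps another gene in the annotation. On chromosomes 1 to 3 the floral integrator SOC1 was at 16.8, 21.2 and 21.7 CPM in er erl2, against 12.2, 11.1 and 12.5 CPM in wild type, higher by 0.74 (SE 0.115). FT, the mobile flowering signal, had an estimate of -0.35 and was not called.

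Called clock genes differed by less than 2-fold except FKF1, a blue-light receptor F-box protein that overlaps a neighbour in the annotation and was higher by 1.22 (SE 0.303). LHY, a morning repressor, was at 146, 132 and 154 CPM in er erl2, against 185, 192 and 211 CPM in wild type. PRR7, which represses LHY, was at 138, 150 and 136 CPM in er erl2, against 107, 83.6 and 78.2 CPM in wild type. GI (GIGANTEA) was at 40.5, 50.3 and 44.4 CPM in er erl2, against 33.8, 35.5 and 29.2 CPM in wild type. LHY was thus lower and the other two higher in each mutant library, at log2 fold changes of -0.45 (SE 0.0811), 0.66 (SE 0.0905) and 0.45 (SE 0.0961). In all, 3 were higher and 1 lower of 9 on chromosomes 1 to 3, and 2 were higher of 8 on chromosomes 4 and 5. Without er erl2 replicate 2 the 4 calls became 2.

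In the shoot, GRF5, a growth-regulating factor of leaves, was at 7.27, 4.70 and 4.87 CPM in er erl2, against 9.47, 12 and 9.73 CPM in wild type, a log2 fold change of -0.89 (SE 0.164). CLV1, a meristem receptor kinase, was higher by 0.39 (SE 0.0761), and PIF4, a bHLH factor of shade and warmth growth, by 0.66 (SE 0.112). CYCD3;2, a D-type cyclin, was higher by 0.43 (SE 0.0793) and overlaps another gene in the annotation. GRF8, of the GRF5 family, was at 0.0309, 0.133 and 0.166 CPM in er erl2, against 0.584, 0.405 and 0.777 CPM in wild type, close to the depth limit in the mutant. HAM3, a GRAS factor of meristems, was lower by 0.31 (SE 0.0869), a call lost without replicate 2 or 3 of either genotype. In all, 1 was higher and 1 lower of 17 meristem and leaf growth genes on chromosomes 1 to 3, and 2 were lower of 10 on chromosomes 4 and 5, or 1 without those same libraries. The shares called, 11.8% and 20%, stood near the 12.4% and 21.2% of all tested genes there. STM (0.03) and KNAT1 (0.09), homeobox genes of the meristem, were not called.

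Several lists gave no call in either chromosome class in edgeR. Of 12 DNA replication genes 0 were called, with 2 at an unadjusted p under 0.05, and of 26 genes of mitosis and cytokinesis 0, with 3 at an unadjusted p under 0.05. Of 22 jasmonate genes 0 were called, with 2 at an unadjusted p under 0.05, and of 14 xylem genes 0, with 1. Endodermis (8 tested), heat shock (7 tested) and phosphate starvation (6 tested) gave 0 calls, with 0, 1 and 3 genes at an unadjusted p under 0.05. DESeq2 called 1 jasmonate gene, 1 mitosis gene and 0 of the others, and limma-voom called 1 jasmonate gene and 0 of the others. Calls in fits without 1 library were 3 jasmonate genes without wild-type replicate 3, 1 mitosis gene without er erl2 replicate 1 or 3, 1 phosphate gene without wild-type replicate 1 and 1 heat shock gene without er erl2 replicate 1.

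ADH1, an alcohol dehydrogenase induced by low oxygen, was at 9.46, 9.91 and 12.7 CPM in er erl2, against 34.5, 72.0 and 32.0 CPM in wild type, a log2 fold change of -2.10 (SE 0.342). SUS1, a sucrose synthase, was at 55.5, 61.2 and 67.0 CPM in er erl2, against 29.2, 29.5 and 27.7 CPM in wild type, a log2 fold change of 1.09 (SE 0.0791). These were the 2 calls among 10 hypoxia genes, in opposite directions, and on chromosomes 1 to 3 the 1 call became 2 without wild-type replicate 3. Marker sums overlapped between the genotypes for endodermis, root cap, xylem, phloem, seed, hypoxia and heat shock genes. Of 17 seed genes, 6 had 3 counts or fewer in all 6 libraries, among them the storage protein genes CRB, CRU3, SESA3 and SESA5.

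Large gene families are read against the 12.4% of tested genes called on chromosomes 1 to 3 and the 21.2% on chromosomes 4 and 5. Of cytochromes P450, 17 of 116 were higher and 8 lower on chromosomes 1 to 3, and 12 of 63 were higher and 8 lower on chromosomes 4 and 5. The 25 calls became 14 without er erl2 replicate 2 and 16 without er erl2 replicate 3, and the 20 became 12 without er erl2 replicate 2 and 13 without wild-type replicate 2. F-box proteins had 8 calls among 117 on chromosomes 1 to 3, 3 without er erl2 replicate 3 and 5 without wild-type replicate 3, and 17 among 64 on chromosomes 4 and 5. Genes with ribosomal protein in the product name had 12 calls among 184 and 15 among 111. The 12 became 7 without wild-type replicate 1, 3 without wild-type replicate 2 and 6 without er erl2 replicate 2 or 3, and the 15 became 9 without wild-type replicate 2 or er erl2 replicate 3.

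**Figure D5:**
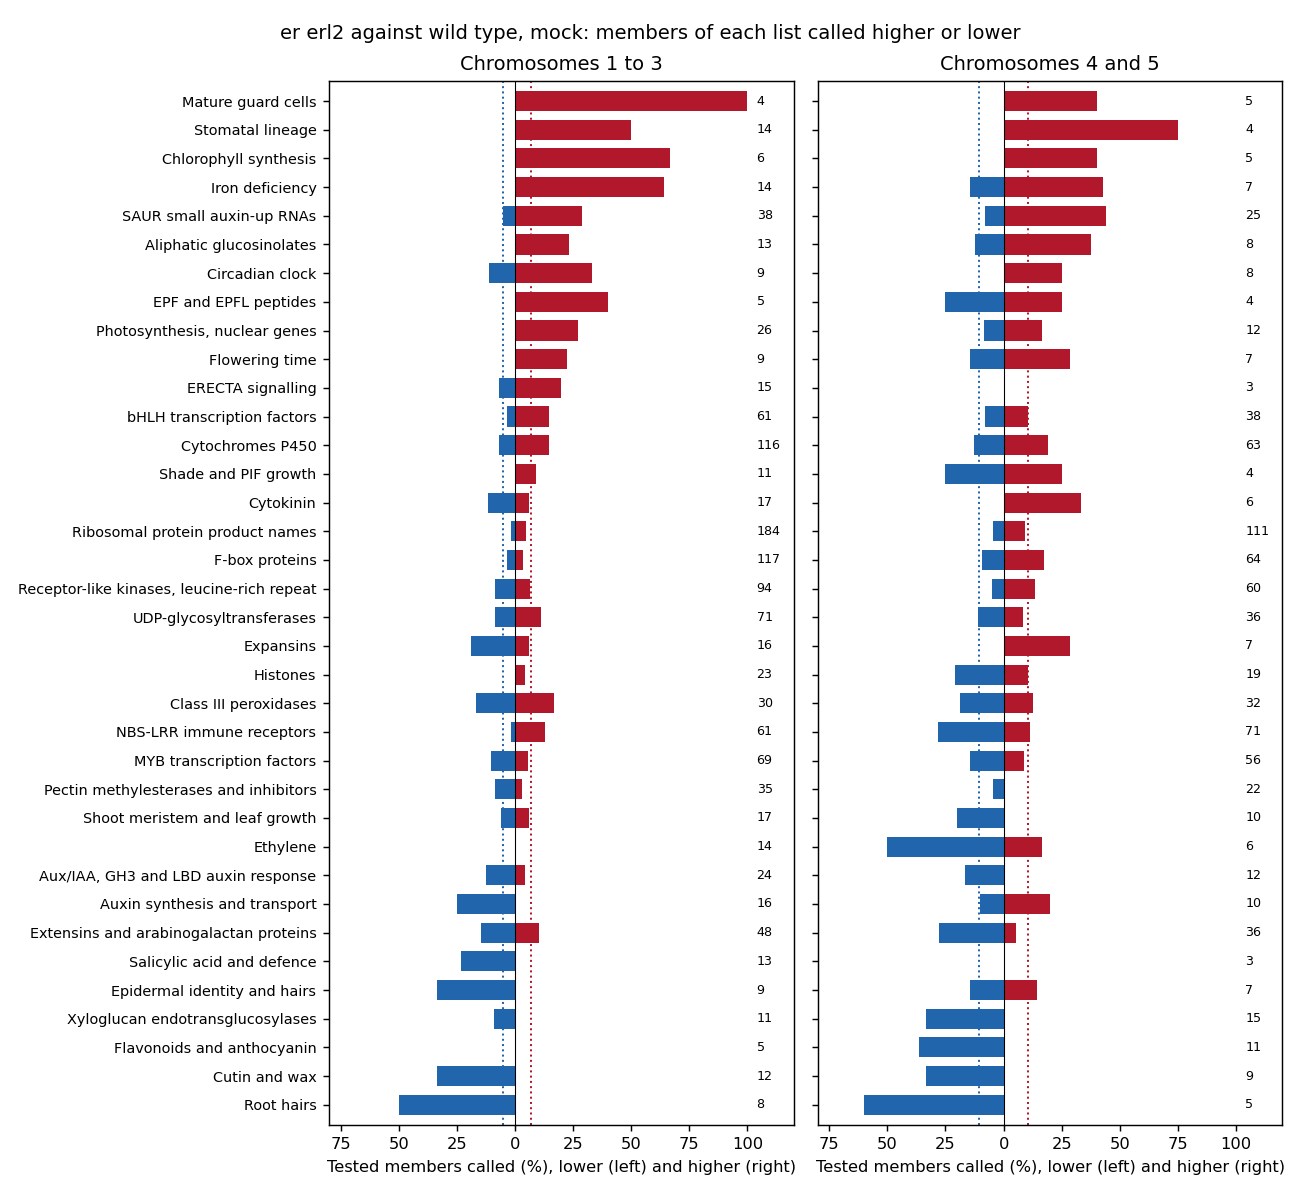
Percent of tested members called higher in er erl2 (red, to the right) and lower (blue, to the left) for the 36 lists with at least 8 tested and 3 called members, for chromosomes 1 to 3 and for chromosomes 4 and 5. Dotted lines mark the share over all tested genes of that class, and the number at the right is the number of tested members. Guard cell and stomatal lists stand at the top and root hair and cutin lists at the bottom.

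The largest differences with a clear level fell in part on members of the lists above and in part on genes outside them. On chromosomes 1 to 3 the largest increase was in QQS, a gene known only from Arabidopsis thaliana that affects starch, at 22.1, 21.6 and 21.8 CPM in er erl2, against 0.259, 0.169 and 0.203 CPM in wild type (log2 fold change 6.67, SE 0.228). AT1G50290, of uncharacterized product, was at 33.6, 41.0 and 33.0 CPM in er erl2, against 2.79, 2.90 and 2.91 CPM in wild type (3.64, SE 0.114). SWEET1, a sugar transporter, was at 44.3, 36.2 and 44.2 CPM in er erl2, against 8.86, 7.33 and 8.28 CPM in wild type (2.35, SE 0.247). All 3 were nearly as different under IAA, at 5.86, 3.63 and 1.88. SWEET1 overlaps a neighbour in the annotation. AT3G62550, with an adenine nucleotide hydrolase-like product, was higher by 2.75 (SE 0.393).

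The largest decreases on chromosomes 1 to 3 included non-coding RNAs. AT3G06355, annotated as a long non-coding RNA that overlaps AT3G41979, was at 1.39, 2.63 and 1.69 CPM in er erl2, against 95.9, 94.8 and 102.7 CPM in wild type (-5.69, SE 0.156). AT3G05945, also a long non-coding RNA, was at 0.495, 0.334 and 0.415 CPM in er erl2, against 12.9, 10.2 and 12.7 CPM in wild type (-4.83, SE 0.213). AT2G33850, with an E6-like product, was at 2.1, 2 and 2.24 CPM in er erl2, against 22.6, 27.3 and 23.6 CPM in wild type (-3.53, SE 0.129). The genotypes lay far apart for these 3 genes, which were as low under IAA (-5.99, -5.33 and -3.92). PHI-1, of the phosphate-responsive family, was at 7.05, 6.50 and 9.79 CPM in er erl2, against 20.7, 45.9 and 52.6 CPM in wild type. It was lower by 2.35 (SE 0.553) under mock and at -0.17, not called, under IAA, and 7 of 14 alternative fits did not call it.

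On chromosomes 4 and 5 the differences were larger still. AT5G15360, of uncharacterized product, was at 24.3, 26.5 and 26.2 CPM in er erl2, against 0.195, 0.101 and 0.101 CPM in wild type (7.55, SE 0.180). Its wild-type counts were 6, 3 and 3, at or near the depth limit, so the size of that difference is uncertain. AT5G18840, a major facilitator superfamily transporter that overlaps a neighbour, was at 73.8, 64.2 and 65.1 CPM in er erl2, against 2.59, 1.79 and 2.23 CPM in wild type (4.94, SE 0.130). AT4G13577, also uncharacterized, was at 14.3, 16.7 and 17.3 CPM in er erl2, against 0.162, 0.372 and 0.270 CPM in wild type (5.90, SE 0.266). All 3 were higher in each mutant library. AT5G35935 was at 24.95, 21.2 and 21.7 CPM in er erl2, against 0.292, 0.203 and 0.237 CPM in wild type (6.51, SE 0.180). AT5G24240, with a phosphatidylinositol 4-kinase gamma-like product and an overlapping neighbour, was higher by 4.88 (SE 0.308).

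In the other direction, AT4G19500, whose product name is of a nucleoside-triphosphatase and receptor, was at 0, 0.167 and 0.0553 CPM in er erl2, against 47.6, 44.1 and 44.4 CPM in wild type, with 0, 5 and 2 counts in the mutant libraries. RPP5, a receptor of resistance to downy mildew that overlaps other genes, was at 3.56, 4.57 and 4.59 CPM in er erl2, against 82.4, 79.2 and 76.7 CPM in wild type (-4.23, SE 0.106). AT4G16957 was at 0.433, 0.901 and 0.498 CPM in er erl2, against 7.85, 7.43 and 7.33 CPM in wild type (-3.64, SE 0.207). DAR4 and the pseudogene AT4G16870 had 0 counts in the mutant. A neighbouring pair of histone genes on chromosome 5 went opposite ways. AT5G10400 was at 3.46, 4.17 and 4.56 CPM in er erl2, against 45, 47.1 and 44.7 CPM in wild type, and AT5G10390 was at 18.3, 18 and 18.1 CPM in er erl2, against 9.76, 11.3 and 8.52 CPM in wild type. Histone genes hold near-identical copies, so reads may be split between them, and their counts are uncertain.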

How the data were processed

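The authors deposited raw counts per gene as whole numbers, 1 column per library, in a table of 37336 loci. The tools bcl2fastq, STAR 2.7.6a and featureCounts 2.0.0 and the build TAIR10 appear, with no stated role, per the submitters' processing notes. Per the labels' protocols, the RNA was enriched for poly-A and the library kit kept strand. The annotation release and whether counting used strand are not given in the sources used here, so reads of overlapping genes on either strand cannot be told apart. RefSeq's TAIR10.1 annotation gave gene names, products and exon overlaps for 37051 loci.

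Counts were filtered with filterByExpr (minimum count 10, minimum total 15, 4 groups), scaled by TMM and fitted to all 12 libraries with edgeR 4.0.16 in R 4.3.3 (robust quasi-likelihood, 1 mean per group). The p-values were Benjamini-Hochberg adjusted over 21376 genes. SEs came from the fold change and F statistic, and the biological coefficient of variation was 0.102. The depth limit was taken as 3 counts, which covers counting error only. The procedure was tested on simulated counts.

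Functional lists (42 by locus, 15 by words of the product name) and members were chosen with earlier results of these data known. A search of gene types for transposons matched no locus. The rule for named genes took the ERECTA family, the 6 largest called increases and 6 largest called decreases in each chromosome class (mean log2 CPM of at least 1, no overlap between genotypes), and up to 4 called members of largest difference per list and class. It gave 248 genes, not all of which are reported here. Other names, including TTG2, MAF5, ICE1, FMA and further list members, were picked once their values had been seen.

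The alternatives comprised scaling by size factors from DESeq2 1.42.0, that package's Wald test, voom from limma 3.58.1, no count filter, a stricter filter (mean CPM of 1), mock libraries only, a replicate block, a minimum log2 fold change of 1, and leaving out each mock library. A block from the numbers in column names was added after seeing the data.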

Additional observations from a re-analysis of the deposited data

How the results depend on the processing

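The count of called genes, 3362 in all, 1617 on chromosomes 1 to 3 and 1745 on chromosomes 4 and 5, stayed within 1.5 times under DESeq2 size factors, the DESeq2 Wald test, limma-voom, no count filter, a stricter filter, mock libraries only and both blocks, with 2530 to 3798 calls in all. A minimum log2 fold change of 1 left 734, 230 and 504 calls. Leaving out 1 library gave 2029 to 3482 calls in all, 835 to 1731 on chromosomes 1 to 3 and 1194 to 1750 on chromosomes 4 and 5. The lowest counts on chromosomes 1 to 3 were 835 without wild-type replicate 2, 858 without er erl2 replicate 3 and 935 without er erl2 replicate 2, and in all 2029, 2057 and 2158. The cause was not tested. Of the values of named genes under all alternatives, 3121 kept direction and side of the threshold, 580 kept direction but lost the call, and 0 changed sign.

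Libraries with the same replicate number did not deviate together over all genes (Pearson r across genes -0.0737, 0.0323 and -0.125 for replicates 1, 2 and 3, genes not being independent replicates). A correlation over all genes cannot show whether such libraries shared a culture or a batch. The replicate block left 2941 calls (1376 and 1565), and the block from column names 2530 (1151 and 1378). Of 52 lists with 3 or more calls in a chromosome class, 51 stayed within 1.5 times under the replicate block and 43 under the block from column names. Depth limits genes near 3 counts, such as WSD1, MYB106 and CYP86A7 in er erl2, whose fold changes are not given. It also limits GA20OX3 and AT5G15360 in wild type, whose fold changes are given but uncertain in size.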
